A study of Mus musculus with 4 samples.

Results

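Mast cell, basophil and eosinophil marker genes were followed in mouse bone marrow macrophage cultures of 2 genotypes, with and without bacterial lipopolysaccharide (LPS). The 9 genes were Fcer1a, Ms4a2, Kit, Cpa3, Mcpt8, Hdc, Gata2, Prg2 and Siglecf, taken by name as genes used to recognise these cells. All 9 had probe sets annotated to that gene alone, 13 of the 34945 such probe sets on the array, which represented 18193 genes. The cultures were grown from bone marrow for 5 days with M-CSF, the growth factor of macrophages. They came from wild-type or Jmjd3-/- mice, the latter called knockout here, and Kdm6b is the gene of Jmjd3, an enzyme that removes a repressive histone methyl mark. Cells of each genotype were either left unstimulated or given 100 ng/ml LPS for 4 h, and each of the 4 groups was 1 Affymetrix array. The sources used here do not give the strain, the age, whether animals were pooled or which part of the gene was deleted.

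Mast cells and basophils carry the high-affinity IgE receptor and release histamine and proteases from granules when antigen cross-links the bound IgE. Eosinophils store a different set of toxic granule proteins, including major basic protein. All of these lineages arise from bone marrow progenitors that depend on the transcription factor GATA2 and on cytokines such as stem cell factor, interleukin-3, interleukin-5 and GM-CSF. M-CSF is not their growth factor. Several of the genes are not confined to them: macrophages can make histamine through Hdc, alveolar macrophages carry Siglec-F, and Gata2 and Kit mark early progenitors.

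Levels are log2 RMA intensities of a probe set, and differences are on the same log2 scale. A level of log2 6 served as the floor, below which a reading was treated as background. It was reached by between 32.1% and 34.5% of probe sets per array, and array medians lay between 4.15 and 4.24. All 10 macrophage markers were above the floor on all 4 arrays, and Csf1r, the M-CSF receptor gene, lay between 12.16 and 13.12. The knockout arrays were also bright for neutrophil granule and stromal markers. Their summed linear intensity without and with LPS was 37277 and 37662 for neutrophil granule markers and 44957 and 44303 for macrophage markers. These readings therefore do not show that the cultures held macrophages alone. The brightest Kdm6b probe set read 10.33 and 11.23 in wild type without and with LPS, and 9.82 and 10.82 in the knockout. Since the position of the deletion is unknown, these readings do not check the genotype labels. Single differences between 2 arrays have no replicate check and no p-value. Effects shared across both genotypes or both states were tested with limma in an additive model of 9385 genes with 1 residual degree of freedom. P-values were adjusted by the Benjamini-Hochberg method over those genes, and the words rose and fell are kept for an adjusted p below 0.05. Where a gene lay under the floor on an array, its fitted difference is partly set against background and its size is uncertain. A bound against the floor is therefore given for some of the larger ones. No label states that the arrays came from separate animals or cultures, so the spread behind these p-values may be technical.

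The DNA just upstream of the members is shown because one of them, Gata2, encodes a factor that binds GATA sequences. The window was the 250 bases before the annotated start in the RefSeq table of build GRCm38.p6, which held 8 of the 9 genes. The motif was AGATAA or AGATAG, and likewise TGATAA or TGATAG, on either strand. The 8 genes had 10 windows, and matches were counted by gene for the members but by window for the background. The motif was found upstream of 4 of the 8 genes, Fcer1a, Cpa3, Ms4a2 and Hdc, against 26.5% of all 32851 windows. Their sequences follow 5′ to 3′ on the gene's strand, which is the minus strand for all 4, with the motif in capitals. They lie at chr1:173227230-173227479, chr3:20242182-20242431, chr19:11623720-11623969 and chr2:126618679-126618928.
Fcer1a: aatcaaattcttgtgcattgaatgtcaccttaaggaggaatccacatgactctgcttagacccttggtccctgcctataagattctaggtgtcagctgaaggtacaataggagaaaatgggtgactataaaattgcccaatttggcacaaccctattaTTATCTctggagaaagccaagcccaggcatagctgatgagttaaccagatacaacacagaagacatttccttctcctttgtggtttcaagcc
Cpa3: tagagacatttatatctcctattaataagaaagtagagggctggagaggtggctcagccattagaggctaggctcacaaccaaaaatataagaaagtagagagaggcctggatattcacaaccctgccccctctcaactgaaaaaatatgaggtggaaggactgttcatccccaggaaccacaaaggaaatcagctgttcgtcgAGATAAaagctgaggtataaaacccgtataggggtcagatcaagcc
Ms4a2: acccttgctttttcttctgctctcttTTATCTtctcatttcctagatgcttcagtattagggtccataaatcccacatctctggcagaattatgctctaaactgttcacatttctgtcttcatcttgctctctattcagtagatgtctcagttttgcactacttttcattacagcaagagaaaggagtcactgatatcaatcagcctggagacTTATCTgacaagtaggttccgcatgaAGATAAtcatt
Hdc: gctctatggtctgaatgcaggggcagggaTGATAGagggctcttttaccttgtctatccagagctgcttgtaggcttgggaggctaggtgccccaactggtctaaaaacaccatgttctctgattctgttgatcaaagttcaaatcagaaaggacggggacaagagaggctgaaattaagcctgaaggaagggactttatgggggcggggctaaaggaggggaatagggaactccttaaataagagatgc
The motif began 92 bases before the start of Fcer1a, 46 before Cpa3 and 221 before Hdc, and Ms4a2 held 3 copies, at 224, 37 and 11 bases. In the same windows the E-box CACGTG or CATGTG, bound by MITF among other factors, occurred upstream of Fcer1a and Siglecf and in 17.6% of all windows. The C/EBP-type motif TTGCNNAA occurred upstream of Fcer1a alone among the 8, and in 9.56% of all windows. A match is a description of the letters and not a measured binding site.

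The 9 genes differed in their pattern over the arrays. Fcer1a, Cpa3, Mcpt8 and Gata2 were brightest on the wild-type array with LPS and lower on both knockout arrays. Hdc was bright on both LPS arrays, Prg2 on both knockout arrays, and Siglecf was brightest on the unstimulated wild-type array. Ms4a2 and Kit stayed under the floor throughout. The 7 genes that reached the floor on some array were tested. Between genotypes 1 rose in the knockout and 4 fell, against 6.39% and 3.12% of the 9385 genes tested. Of the 7, Fcer1a, Cpa3, Mcpt8 and Gata2 were above the floor in wild type alone and Prg2 in the knockout alone, so the genotype count is a description and is not read against those shares. With LPS 1 rose and 1 fell, against 11.2% and 18.8%. The same shares apply to the counts of called genes in the other lists below. Those lists were chosen with earlier results of these data known, so their counts are a description. All 5 genotype calls were lost when LPS was left out of the model, and those of Mcpt8 and Siglecf with a floor of log2 8 (limma).

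**Figure D1:**
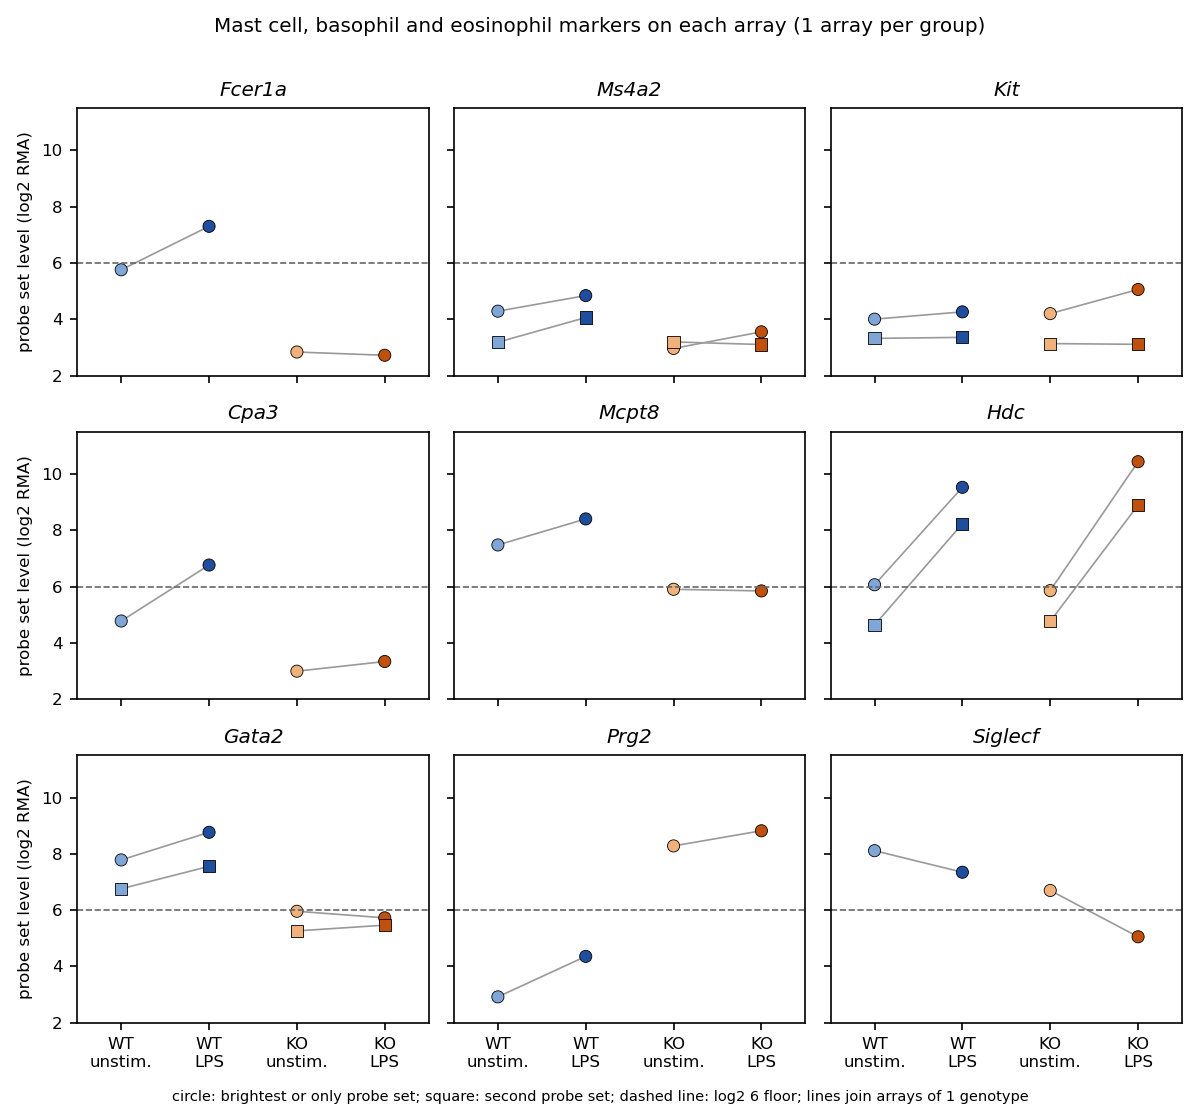
Level of each marker gene (log2 RMA, y axis) on the 4 arrays (x axis), 1 array per group, with a circle for the brightest or only probe set and a square for the second. The dashed line is the log2 6 floor, which Ms4a2 and Kit do not reach on any array, while Hdc reads 9.53 and 10.44 on the LPS arrays.

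The IgE receptor genes came first by role. Fcer1a encodes the alpha chain that binds IgE. It read 5.76 in unstimulated wild-type cells, 7.31 in wild type with LPS, 2.84 in unstimulated knockout and 2.73 in the knockout with LPS. Only the wild-type array with LPS was above the floor, and both knockout arrays lay at background. Fcer1a fell in the knockout by 3.75 (SE 0.61, limma adjusted p = 0.0284), with a lower reading in each of the 2 states. Because the knockout reading is background, this size is uncertain, and set against the floor itself the LPS pair differed by at least 2.47-fold. The call was lost with LPS left out of the model (limma adjusted p = 0.196) and with 64 added to the linear values, where the difference was -1.19 (limma adjusted p = 0.0593). Fewer cells of a type and less RNA per cell cannot be told apart in these bulk cultures.

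Ms4a2 encodes the beta chain, which amplifies the receptor's signal in mast cells and basophils. Its brighter probe set read 4.29 and 4.85 in wild type without and with LPS, and 2.97 and 3.56 in the knockout. The dimmer one read 3.19, 4.07, 3.20 and 3.11 in the same order. All 8 readings were under the floor, so Ms4a2 was not detectable here and took no part in the main test. With no floor, the brighter probe set differed by -1.31 between genotypes (limma adjusted p = 0.018), a difference between background readings.

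The gamma chain gene Fcer1g, which macrophages also use for Fc gamma receptors, was bright and similar on all arrays, between 12.90 and 13.19. Of 13 measured genes of IgE receptor signalling, 12 reached the floor. With LPS 3 of them rose and 4 fell, and between genotypes 0 passed by limma, with 3 at an unadjusted p below 0.05. Over the 9385 genes tested, 11.2% rose and 18.8% fell with LPS, and 6.39% rose and 3.12% fell in the knockout. The IgE signalling genes that rose or fell with LPS are given next. Those that rose were the adaptor gene Lcp2 (1.84) and the kinase genes Fyn (0.83) and Syk (0.62). Inpp5d, which encodes the inhibitory phosphatase SHIP-1, fell by 2.48, Plcg1 by 1.23, Lat2 by 0.91 and Plcg2 by 0.89. These are genes that macrophages express too.

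Granule genes followed. Cpa3, the mast cell carboxypeptidase also found in basophils, read 4.78 and 6.77 in wild type without and with LPS, and 3.0 and 3.34 in the knockout. As with Fcer1a, only wild type with LPS was above the floor. The difference with LPS was 1.99 in wild type and 0.34 in the knockout. The genotype difference over both states was -2.60 (SE 0.65, limma adjusted p = 0.0812), with a lower reading in each of the 2 states. It did not pass, but it passed with a floor of log2 5 (limma adjusted p = 0.0463) and with no floor (limma adjusted p = 0.0192). Over the 7 alternatives that could be run the adjusted p lay between 0.0192 and 0.579.

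Mcpt8, a protease gene specific to mouse basophils, read 7.48 in unstimulated wild type and 8.40 with LPS. In the knockout it read 5.91 and 5.85, just under the floor. Both wild-type arrays were above both knockout arrays. Mcpt8 fell in the knockout by 2.07 (SE 0.30, limma adjusted p = 0.0211), with a lower reading in each of the 2 states. Against the floor, the difference was at least 2.79-fold unstimulated and at least 5.29-fold with LPS. With LPS it differed by 0.92 in wild type, just under 2-fold, and by -0.06 in the knockout, or 0.18 after quantile normalization.

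Most other mast cell granule genes gave little signal. The exceptions were Srgn, between 12.04 and 12.98, Ndst2, between 8.43 and 8.93, and Ctsg, at 8.41 and 8.80 in the knockout without and with LPS. Of 11 measured, 7 stayed under the floor on all arrays, including the tryptase genes Tpsab1 and Tpsb2 and the protease genes Mcpt1, Mcpt2 and Mcpt4. Mcpt1 came closest, at 5.77 in wild type with LPS against 2.81 in the knockout with LPS. The chymase gene Cma1 passed the floor in wild type with LPS alone, at 6.52, against 4.67 unstimulated and 3.54 and 3.38 in the knockout. All 11 genes were higher with LPS in wild type and 8 of 11 in the knockout, where 49.1% and 45.7% of all 18193 genes were higher. The medians of those differences were 0.41 and 0.17. Because 7 of the 11 genes lay under the floor, most of these are differences between background readings, and the counts and medians are a description only. By the test, Srgn, the serglycin gene expressed by many leukocytes, rose with LPS (0.61). Ctsg, a cathepsin gene shared with neutrophil precursors, rose in the knockout (2.58). It was under the floor in unstimulated wild type, at 5.60, and the unstimulated difference was at least 5.31-fold against the floor. No other gene of the list passed in either effect.

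Hdc encodes histidine decarboxylase, the enzyme that makes histamine. Its brighter probe set read 6.07 in unstimulated wild type, 9.53 in wild type with LPS, 5.86 in unstimulated knockout and 10.44 in the knockout with LPS. The second probe set read 4.64, 8.23, 4.77 and 8.90 in that order. Both LPS arrays were far above both unstimulated arrays on both probe sets. Hdc rose with LPS by 4.02 (SE 0.31, limma adjusted p = 0.00386), with a higher reading in each of the 2 genotypes. The call was kept under all 8 alternatives, with adjusted p between 0.000921 and 0.0356. In wild type the fold was 11.0, and in the knockout it was at least 21.7 against the floor.

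Between genotypes Hdc did not pass, at 0.35 (limma adjusted p = 0.55). The single differences were -0.21 unstimulated and 0.91 with LPS on the brighter probe set, and 0.13 and 0.66 on the other. The LPS response was larger in the knockout by 1.12 on the brighter probe set and by 0.53 on the second, with no test of that difference. Both Hdc probe sets belong to a class that can match more than 1 transcript. In the list of histamine and polyamine handling, 5 of 8 measured genes reached the floor. Hnmt, the enzyme that inactivates histamine, fell with LPS by 1.26, and the other 4 did not pass in either effect. The receptor gene Hrh2 read 4.98 and 5.90 in wild type and 4.32 and 6.45 in the knockout, while Hrh1 and Hrh4 stayed under the floor. Slc18a2, whose product loads histamine into granules, also stayed under the floor, at most 4.96.

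**Figure D2:**
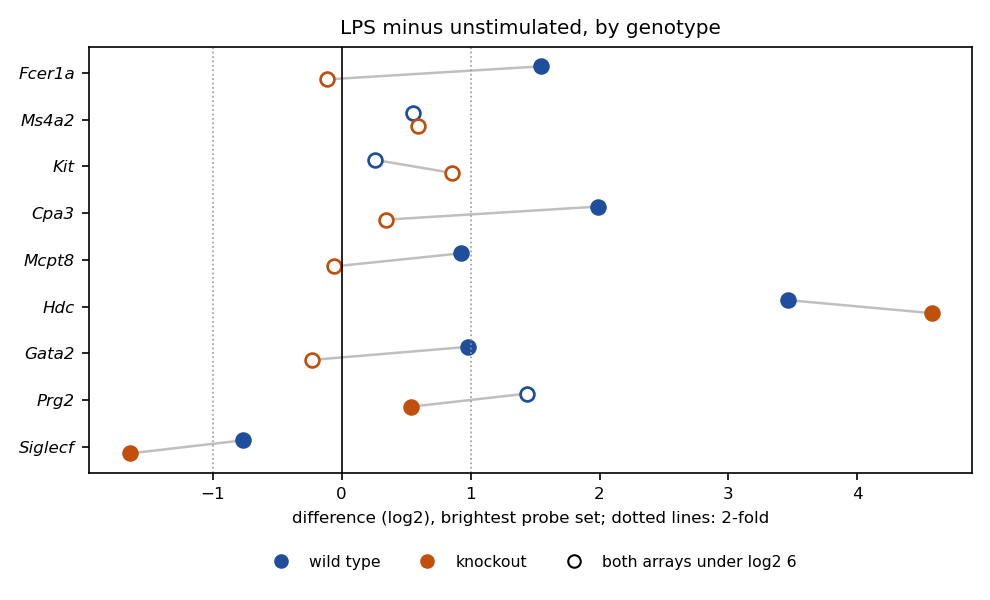
LPS minus unstimulated difference (log2, x axis) of the brightest probe set of each marker gene in wild type (blue) and knockout (orange), 1 array per group, with open circles where both arrays lie under the floor and dotted lines at 2-fold. Hdc is higher in both genotypes (3.46 and 4.58), Siglecf lower in both (-0.77 and -1.64), and Fcer1a, Cpa3, Mcpt8 and Gata2 have larger differences in wild type.

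Gata2 encodes the transcription factor that maintains progenitors, mast cells and basophils. Its brighter probe set read 7.78 and 8.77 in wild type without and with LPS, and 5.96 and 5.73 in the knockout. The second read 6.76, 7.56, 5.26 and 5.47. On both probe sets the wild-type arrays lay above the floor and the knockout arrays below it. Gata2 fell in the knockout by 2.43 (SE 0.34, limma adjusted p = 0.0184), with a lower reading in each of the 2 states. The differences were at least 3.44-fold unstimulated and at least 6.80-fold with LPS against the floor. With LPS Gata2 differed by 0.98 and 0.80 in wild type on the 2 probe sets, and by -0.23 and 0.20 in the knockout, where the first turned to 0.01 after quantile normalization.

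Kit encodes the receptor of stem cell factor and defines mast cells and early progenitors. Its brighter probe set read 4.01, 4.27, 4.21 and 5.06 for wild type without and with LPS and the knockout without and with LPS. The second read 3.33, 3.36, 3.14 and 3.12. Kit was thus under the floor on all 4 arrays and not detectable at this sensitivity.

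Among 14 measured transcription factor genes of these lineages, 11 reached the floor. With LPS Cebpb (1.97), Stat5a (1.61) and Ikzf1 (1.56) rose and Cebpa fell by 3.32. Between genotypes Bhlhe40 fell by 1.44, and the other 10 did not pass. Gata1, which is needed for mast cells and eosinophils, and Tal1 and Zfpm1 were under the floor on all arrays. Mitf, a factor of mast cells and macrophages, read between 12.28 and 12.56. Lyl1 passed the floor on the unstimulated knockout array alone, at 7.63, against 4.94 and 4.02 in wild type without and with LPS and 4.65 in the knockout with LPS.

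Prg2 encodes eosinophil major basic protein. It read 2.92 and 4.36 in wild type without and with LPS, both under the floor, and 8.28 and 8.82 in the knockout. Both knockout arrays were above both wild-type arrays. Prg2 rose in the knockout by 4.91 (SE 0.33, limma adjusted p = 0.00248), with a higher reading in each of the 2 states. Since wild type lay at background, only bounds can be read: against the floor Prg2 was at least 4.86-fold higher unstimulated and at least 7.06-fold higher with LPS. With 64 added to the linear values the fitted difference was 2.5 and still passed (limma adjusted p = 0.00143). Its difference with LPS, 0.99, did not pass (limma adjusted p = 0.0797).

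The next 4 eosinophil genes lay under the floor, so the sizes of their differences cannot be compared with that of Prg2. The eosinophil peroxidase gene Epx read 3.87 and 3.48 in wild type without and with LPS and 4.73 and 4.44 in the knockout. Prg3, the close relative of Prg2, read 2.98 and 3.19 against 4.18 and 3.82. The eotaxin receptor gene Ccr3 read 3.90 and 3.60 against 5.94 and 5.68, the knockout readings being just under the floor. Il5ra stayed between 3.58 and 3.75. All 4 genes were therefore under the floor on all arrays, and 3 of them had higher readings on both knockout arrays.

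Neutrophil granule genes moved in the same direction as Prg2. Of 9 such markers 8 rose in the knockout, where 6.39% of the 9385 genes tested rose, and Lcn2 did not pass. Mpo and Elane were under the floor on both wild-type arrays, and against the floor they were at least 49.9- and 12.7-fold higher unstimulated and at least 32.3- and 8.30-fold higher with LPS. The summed linear intensity of all 9 markers was 1164 and 3182 on the wild-type arrays without and with LPS and 37277 and 37662 on the knockout arrays. All 9 were above the floor on both knockout arrays, and 2 and 4 on the wild-type arrays. Of 7 stromal markers at the floor 5 rose, among them Col1a1, at least 81.8-fold higher unstimulated against the floor, and the summed intensity of all 8 measured went from 461 and 615 to 17202 and 14074. The other 2, Dcn (0.84) and Thy1 (-1.73), did not pass (limma adjusted p = 0.211 and 0.116). Thy1 went the other way, reading 5.22 and 6.32 in wild type without and with LPS and 4.07 and 4.02 in the knockout. Lum was under the floor on all 4 arrays. The part of these cells in the Prg2 result was not tested.

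Siglecf encodes a sialic acid-binding receptor of eosinophils and alveolar macrophages. It read 8.11 and 7.35 in wild type without and with LPS, and 6.70 and 5.05 in the knockout. The knockout reading with LPS was under the floor, so the fitted sizes below are uncertain. Against the floor, the genotypes differed by at least 2.54-fold with LPS. The LPS difference in the knockout was at least 1.62-fold. Both wild-type arrays were above both knockout arrays, and in each genotype the LPS array was the lower. Siglecf fell in the knockout by 1.85 (SE 0.29, limma adjusted p = 0.0252), with a lower reading in each of the 2 states. It fell with LPS by 1.21 with the same standard error (limma adjusted p = 0.0379) and was lower in each of the 2 genotypes. With 64 added to the linear values these differences were -1.12 and -0.69 and still passed (limma adjusted p = 0.0144 and 0.0272). The LPS call was lost under 4 of 8 alternatives, and over all 8 the adjusted p lay between 0.0272 and 0.467. Of the 7 other Siglec receptor genes 3 reached the floor. Cd22 fell in the knockout by 1.21, reading 8.36 and 7.78 in wild type and 7.20 and 6.52 in the knockout, and the other 2 did not pass.

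**Figure D3:**
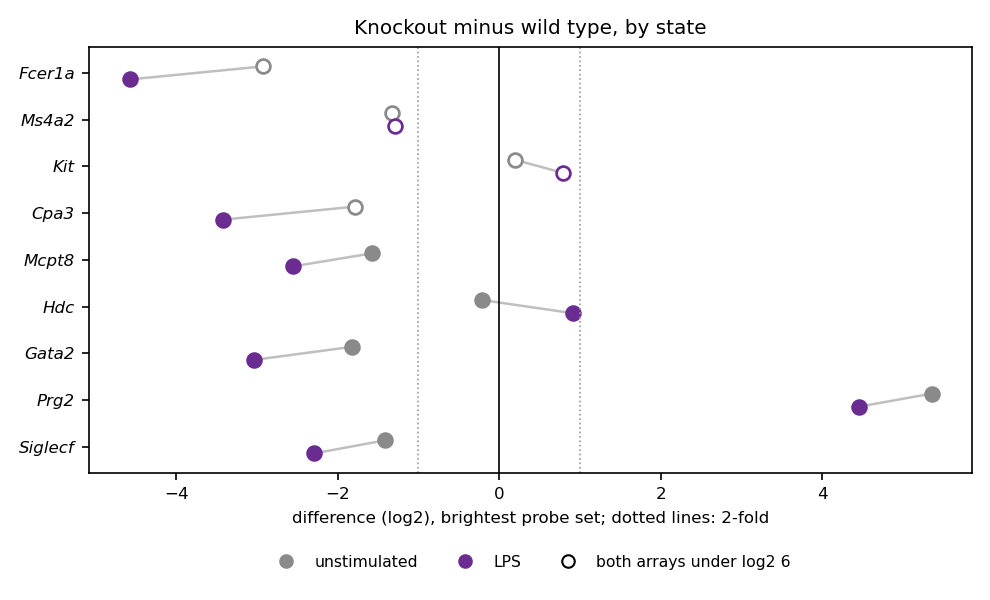
Knockout minus wild type difference (log2, x axis) of the brightest probe set of each marker gene, unstimulated (grey) and with LPS (purple), 1 array per group, with open circles where both arrays lie under the floor and dotted lines at 2-fold. Prg2 lies at 5.36 and 4.46, while Fcer1a, Cpa3, Mcpt8, Gata2 and Siglecf lie below 0 in both states.

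Counted between single arrays, with no test, a gene had to reach the floor on the higher array and differ 2-fold or more. Fcer1a and Cpa3 passed that filter only through the wild-type array with LPS, Mcpt8 and Gata2 only through the wild-type arrays, and Prg2 only through the knockout arrays, so these counts describe the readings and support nothing further. In wild type 6 of the 9 genes reached the floor and 3 were higher with LPS, with 0 lower, where the shares were 9.86% and 14.3% of the genes that reached the floor in that comparison, as for each pair of shares that follows. In the knockout 3 reached it, Hdc was higher and Siglecf lower, against 11.0% and 15.5%. Unstimulated, 5 reached it, Prg2 was higher in the knockout and 3 were lower, against 9.54% and 5.74%. With LPS 7 reached it, Prg2 was higher in the knockout and 5 were lower, against 9.76% and 5.65%.

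Medians over all 9 genes, whether or not they reached the floor, were 0.98 for LPS in wild type and 0.34 in the knockout, beside -0.01 and -0.05 over all 18193 genes. With 64 added to the linear values the knockout median was 0.04. For knockout minus wild type they were -1.41 unstimulated and -2.29 with LPS, where the medians of all genes were 0.0045 and 0.0. The knockout's LPS response minus the wild type's had a median of -0.90, beside -0.03 for all genes, and 6 of the 9 genes were below 0. These comparisons share arrays and are not independent of each other.

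The cytokines that feed these lineages were measured on the same arrays. Of 14 measured growth factor and receptor genes 11 reached the floor, and of these 5 fell in the knockout, 4 rose with LPS and none passed the other way (limma). Of the 9385 genes tested, 3.12% fell in the knockout and 11.2% rose with LPS. Il5 and Tslp reached the floor in wild type with LPS alone, and the counts are a description. Csf2, the GM-CSF gene, read 8.81 and 9.99 in wild type without and with LPS and 3.79 and 6.45 in the knockout. It fell in the knockout and rose with LPS, and against the floor it was at least 7.03-fold lower in the unstimulated knockout. The GM-CSF receptor genes Csf2ra (-0.99) and Csf2rb (-1.47) fell in the knockout as well, and so did Csf2rb2 (-1.42), which serves interleukin-3.

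Il33, whose product activates mast cells and basophils, rose with LPS and fell in the knockout. It was under the floor on both unstimulated arrays, at 4.70 and 2.93, and read 10.42 in wild type and 8.60 in the knockout with LPS, at least 21.5- and 6.07-fold higher against the floor. Kitl, the gene of stem cell factor and the ligand of Kit, rose with LPS by 1.40 and Tslp, above the floor in wild type with LPS alone, rose as well. Il5 passed the floor in wild type with LPS alone, reading 5.00, 6.74, 3.23 and 3.68 for wild type without and with LPS and the knockout without and with LPS. Il13, a cytokine of basophils, mast cells and lymphocytes, read 6.31 and 6.86 in wild type against 3.61 and 3.62 in the knockout, and fell, by at least 1.24-fold unstimulated and 1.81-fold with LPS against the floor. Il4 and Il3 stayed under the floor. Of 8 measured basophil and eosinophil genes outside the 9 markers, Il13 was the only one above the floor on any array.

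**Figure D4:**
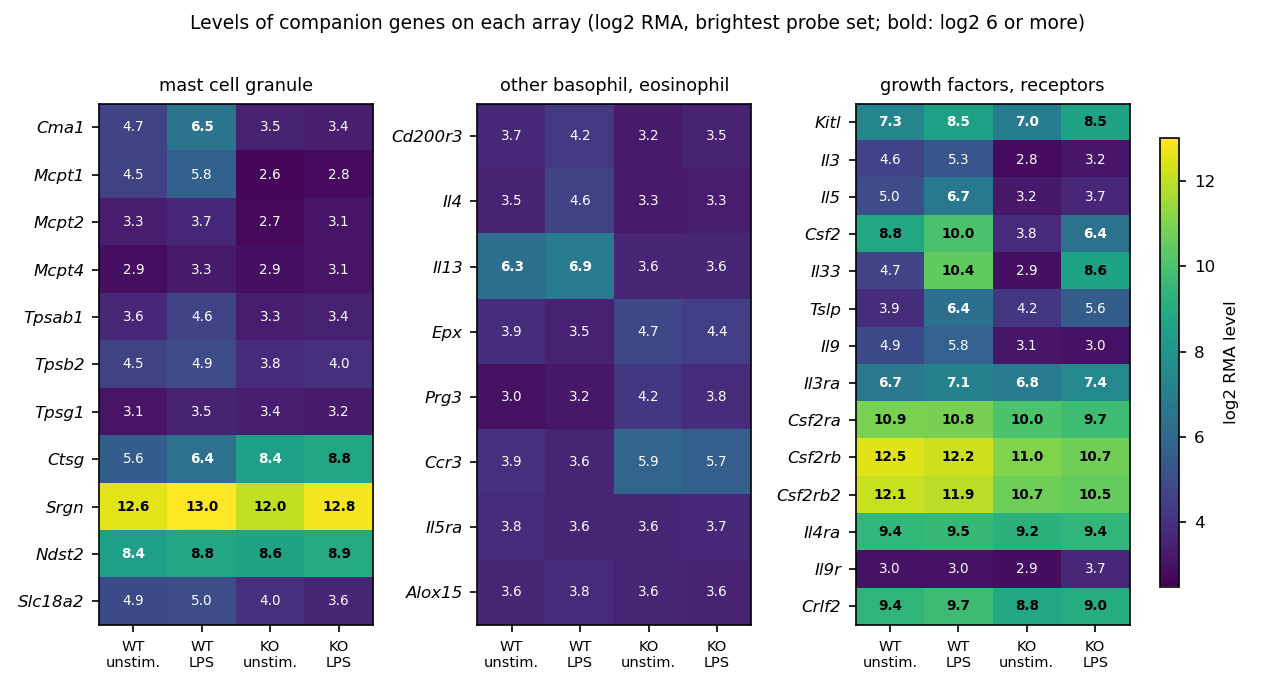
Level (log2 RMA, colour scale and printed value) of companion genes on the 4 arrays, 1 array per group, in bold at log2 6 or more. Cma1, Il5 and Tslp reach the floor in wild type with LPS alone, and Csf2 reads 8.81 and 9.99 in wild type against 3.79 and 6.45 in the knockout.

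Among mast cell lipid mediator genes, 5 of 9 measured reached the floor. Ptgs2, the inducible prostaglandin synthase gene, rose with LPS by 2.67. Hpgds, the haematopoietic prostaglandin D synthase gene, fell with LPS by 1.87 and rose in the knockout by 2.85. Alox5ap (-0.85) and Lta4h (-1.08), both of the leukotriene pathway, fell with LPS. Hpgds read 6.22 and 4.38 in wild type without and with LPS, and 9.10 and 7.20 in the knockout. Wild type with LPS was under the floor, so both fitted sizes of Hpgds are uncertain. Against the floor it was at least 2.30-fold higher in the knockout with LPS. In wild type it was at least 1.16-fold lower with LPS. Ltc4s stayed under the floor on all arrays.

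T cell receptor complex genes had lower levels in the knockout beside Fcer1a, Mcpt8 and Gata2. Cd3e, Cd3g and Cd3d fell, and were the 3 of 6 measured T, B and NK markers that reached the floor. All 3 were under it on both knockout arrays, and against the floor they were lower by at least 1.97-, 1.31- and 1.27-fold unstimulated and 2.80-, 1.42- and 1.89-fold with LPS. The summed intensity of the 6 was 330 and 431 on the wild-type arrays without and with LPS, and 75.9 and 96.7 on the knockout arrays. Cd79a, Ms4a1 and Ncr1 were under the floor on all 4 arrays. Of 6 measured dendritic cell markers 3 reached the floor and 2 fell in the knockout, Itgax by 2.25 and Ccr7, which lay under the floor in the unstimulated knockout, with summed intensities of 4382 and 6129 against 1028 and 1226. Flt3, Xcr1 and Siglech were under the floor on all arrays. Of 10 macrophage markers Fcgr1 rose in the knockout by 0.76 and Itgam fell by 1.04, and the summed intensity stayed between 42503 and 45017. Of 6 measured erythroid and megakaryocyte markers 4 reached the floor and 0 passed by limma in either effect, with 2 at an unadjusted p below 0.05 in each, and sums of 9401 and 6546 in wild type and 6821 and 6054 in the knockout. The part of these cells in the lower readings of Fcer1a, Mcpt8, Gata2 and Siglecf was not tested.

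**Figure D5:**
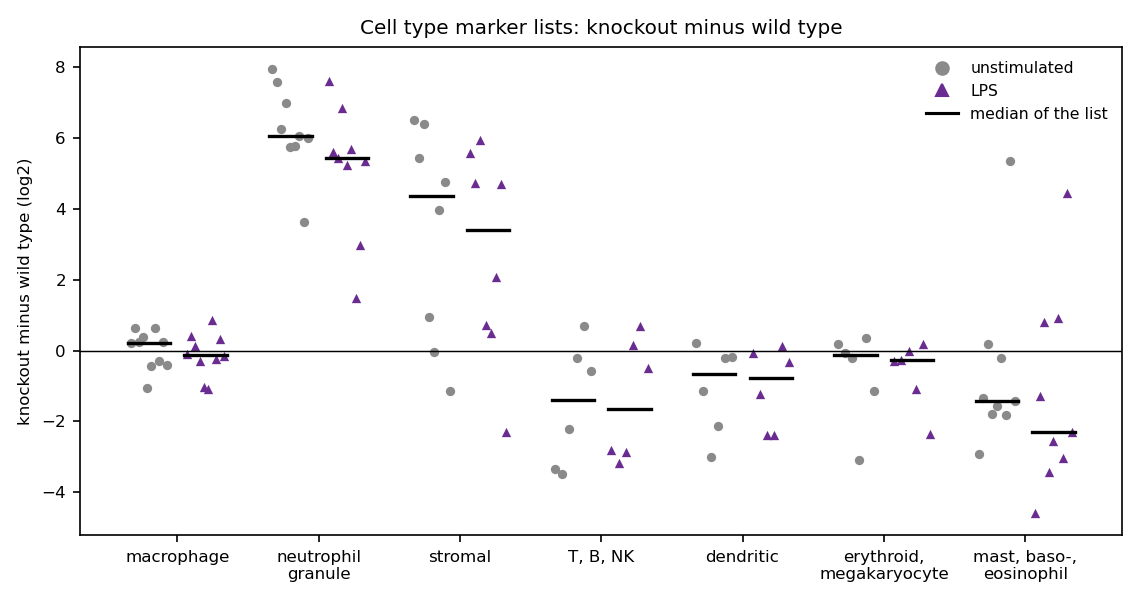
Knockout minus wild type difference (log2, y axis) of each measured gene of 7 cell type marker lists (x axis), unstimulated (grey circles) and with LPS (purple triangles), 1 array per group, with a bar at each list's median. The medians are 0.23 and -0.13 for macrophage markers, 6.05 and 5.43 for neutrophil granule markers, and -1.41 and -2.29 for mast cell, basophil and eosinophil markers.

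Likeness of pattern was measured as the Euclidean distance between 2 genes' 4 log2 levels after each gene's mean was subtracted, over the 4 arrays. Readings under the floor were included, so a distance can rest partly on background readings. Among the 7 members at the floor, Mcpt8 and Gata2 were the closest pair, at a distance of 0.39. Cpa3 lay at 0.84 from Gata2, 0.97 from Mcpt8 and 1.23 from Fcer1a. The smallest distance of Hdc to another member was 4.33, that of Prg2 5.57, and that of Siglecf 1.65.

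Over all genes at the floor, the 3 closest to Fcer1a were Il2, Penk and Asb11, at 0.65 to 0.79. For Cpa3 they were Il5 (0.27), Cyp11a1 and St7, and for Mcpt8 Tshz1 (0.26), Il2rb and Icos. Gata2 was closest to H2-Oa (0.26), Icos and Cd3d. Hdc was closest to Ifi44l (0.25), Plekha4 and Bambi-ps1, and Prg2 to Ghr (0.41), Ltbp1 and Gpc4. Siglecf was closest to Spaca9 (0.08), Vwf and Fam20c. Cpa3 and Il5 were under the floor on all arrays but wild type with LPS. Mcpt8, Gata2, Il2rb and Icos were under it on both knockout arrays. With 4 arrays many genes can share a pattern, so these neighbours are a description.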

How the data were processed

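Expression was measured on 4 Affymetrix arrays, 1 per group. The labels' protocols give Trizol extraction and biotinylated cRNA made with the NuGEN Ovation system. The authors deposited log2 intensities per probe set, from RMA per the submitters' processing notes. The sources used here give no version of it. Columns had nearly equal distributions, with at most 0.34 between values of equal rank.

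Of 45101 probe sets, 64 were controls, 932 named several genes and 9160 none; the 34945 with 1 gene were used, and 34741 had an identifier in the RefSeq gene table of GRCm38.p6. For each of 18193 genes the probe set of highest mean level was taken. Genes at log2 6 on 1 array or more entered limma 3.58.1 in R 4.3.3 (additive model, intensity trend, Benjamini-Hochberg over 9385 genes, prior 3.84 degrees of freedom), which was tested on simulated data. The number of arrays limits the precision. Alternatives covered the floor (log2 5, log2 8, none), the trend, the probe set, quantile normalization, 64 added to linear values, and leaving out the other factor. Python 3.11.15 with pandas 2.3.3 was used.

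The 9 members were given by name, and these members and the 14 other gene lists were chosen with earlier results of these data known. Every member was named. Other list genes could be named where limma called them or as the 2 highest and 2 lowest differences at the floor. Genes named outside that, such as Epx, Prg3, Ccr3 and Mcpt1, which were under the floor, were chosen after their values were seen. Likeness took the 3 nearest genes for members at the floor with a range of 1 or more.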

Additional observations from a re-analysis of the deposited data

Results flagged for a closer look

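The same contrast pointed in opposite directions in the 2 genotypes, or in the 2 states, for 4 of the members at the floor. None of these differences was tested, since each group was 1 array. The Fcer1a difference with LPS was 1.54 for wild type and -0.12 for the knockout, a gap of -1.66. For Gata2 it was 0.98 and -0.23, a gap of -1.21, and for Mcpt8 0.92 and -0.06, a gap of -0.98. All 3 knockout readings lay under the floor in both states, and after quantile normalization the knockout difference turned to 0.01 for Gata2 and 0.18 for Mcpt8. The knockout minus wild type difference of Hdc was -0.21 unstimulated and 0.91 with LPS, a gap of 1.12, and its second probe set gave 0.13 and 0.66, with no change of sign.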

How the results depend on the processing

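For LPS, 2 members were called, Hdc and Siglecf. The count was 1, Hdc alone, with a floor of log2 8, with no floor, without the intensity trend and with genotype left out of the model, and 2 under the other 4 alternatives. For genotype, 5 were called. The count was 2, Gata2 and Prg2, with a floor of log2 8, under which Fcer1a was not tested and Mcpt8 and Siglecf did not pass (limma adjusted p = 0.057 and 0.0707). It was 0 with LPS left out of the model (limma, 5 at an unadjusted p below 0.05), and between 4 and 7 under the other 6. With 64 added to the linear values the member median became -0.35 for genotype unstimulated, -1.22 for genotype with LPS and -0.20 for the difference between LPS responses, in place of -1.41, -2.29 and -0.90, the median for LPS in the knockout became 0.04 in place of 0.34, the genotype differences of Mcpt8 and Gata2 became -1.35 and -1.63, and this offset by construction shrinks differences near background. Of 108 fitted LPS and genotype effects of the 7 tested members under alternatives, 94 stayed on their side of the threshold, 12 were lost and 2 gained. The 94 include effects that were not called in the main fit and so could not be lost. None of the 108 changed sign, but the floor, the trend and leaving out the other factor do not alter a fitted difference in this balanced design. Under those alternatives the sign was fixed in advance. Among differences between single arrays, those of Gata2 and Mcpt8 with LPS in the knockout turned to 0.01 and 0.18 after quantile normalization, and the Prg2 difference between LPS responses turned from -0.90 to 0.22 with 64 added. That of Ms4a2, under the floor throughout, turned from 0.04 to between -0.47 and -0.07 under 3 alternatives. Over all genes, 893 were called for genotype, but 461 with a floor of log2 8, 530 with the mean of all probe sets and 111 with LPS left out, and for LPS 2823, but 267 with genotype left out.

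No paired analysis was possible because each group had 1 array, so no replicate numbers are shared. The additive model itself compares LPS within genotype and genotype within state, and leaving out the other factor is its form without that block. Leaving out an array leaves no residual degree of freedom, so no such test was run. Readings under log2 6 cannot show whether a gene is expressed.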
